A study of Mus musculus with 6 samples.

Results

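The Id genes and the BMP signalling genes described here are 10 rows of the deposited count table, listed by symbol: Id1, Id2, Id3 and Id4, the ligands Bmp2, Bmp4 and Bmp7, the inhibitory SMAD Smad6, and the receptors Bmpr1a and Bmpr2. They are 10 of 18512 entries, and 9 of them had enough reads to be tested. The cells were NMuMG, an established epithelial line from mouse mammary gland, so that all libraries come from 1 line. The cells were deprived of serum. They then received the vehicle DMSO, TGF-β alone (5 ng/ml), or both TGF-β (5 ng/ml) and 50 uM 2APB (2-aminoethoxydiphenylborane). The study describes 2APB as a modulator of store-operated calcium entry that blocks the channels ORAI1 and ORAI2 but raises calcium entry through ORAI3. The treatment is described as lasting a day in one place, and in another 2APB is placed a day before TGF-β. Each group held 2 biological replicates, and cells given 2APB without TGF-β were not analysed here, so the effect of 2APB is seen only on top of TGF-β.

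Bone morphogenetic proteins are secreted ligands of the TGF-β family. They bind pairs of type I and type II receptor kinases, which phosphorylate SMAD1, SMAD5 and SMAD9, and these enter the nucleus with SMAD4. The Id genes are among the best known direct targets of this pathway, and ID proteins lack a DNA-binding region and hold back the E proteins, basic helix-loop-helix factors that bind DNA. In epithelial cells the pathway is known to counter some actions of TGF-β, a factor that drives epithelial-mesenchymal transition.

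The libraries held 71840570 to 79473182 counts, all of them even numbers, and replicates varied by 17.4% (edgeR's biological coefficient of variation). All 8 epithelial markers listed had a row, and several differed between the groups in deposited counts. Cdh1 (E-cadherin) had 87706 to 92780 counts in DMSO and 35416 to 41622 in TGF-β+2APB, and Krt19 had 40792 to 45904 and 1704 to 3488. The keratin genes Krt8 and Krt18 went the other way, from 155860 or more in DMSO to 570696 or more in TGF-β+2APB, and Cldn4 from at most 6 counts to at least 1550. Epcam was low (52 to 158 counts) and Esrp1 held 0 to 4 counts. Of the fibroblast markers, Pdgfrb had 10 and 12 counts in DMSO and 504 to 670 in the treated libraries, while Thy1, Dcn and Fap held at most 6 counts. The part of these markers in the results for the Id and BMP genes was not tested. TGF-β+2APB replicate 2 stood apart: 161 genes were at least 16-fold higher there than in replicate 1, against 21 genes for the second TGF-β library and 0 for the second DMSO library. Among the 161 was the macrophage gene Lyz2, with 29060 counts against 158. The summed normalized counts of the 4 leukocyte markers in the table (of 5 listed) were 2368 in that library and 166.3 in TGF-β+2APB replicate 1. They were 703.7 and 582.6 in DMSO and 315.6 and 215.8 in TGF-β. In TGF-β replicate 2, the salivary protein gene Bpifa2 had 1158 counts against 0 in replicate 1, and it was also high in both TGF-β+2APB libraries. For the members, calls that change without either of these 2 libraries are named below.

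Id1, Id2 and Id3 all fell with TGF-β, and Id1 and Id2 fell again when 2APB was present. Of the 9 tested members, 6 passed an FDR of 0.05 or less between TGF-β and DMSO, 2 higher and 4 lower. Among all 13353 genes tested, 41.5% passed in that comparison, 21.8% higher and 19.7% lower. Between TGF-β+2APB and TGF-β, 5 of 9 members passed, 1 higher and 4 lower, against 17.5% of all genes, 6.58% higher and 10.9% lower. Without TGF-β replicate 2, 8 members passed in that step, and the calls over all genes rose too, from 2334 to 5405. Between TGF-β+2APB and DMSO, 7 of 9 passed, 2 higher and 5 lower, against 52.8% of all genes, 25.6% higher and 27.2% lower. The members' median log2 fold changes in these comparisons were -0.34, -0.61 and -0.35, and those of all genes tested were -0.010, -0.0037 and -0.0033. FDR here is the Benjamini-Hochberg adjusted p of edgeR's quasi-likelihood test over all genes tested, and normalized counts are counts scaled to a library of mean size. The comparisons share libraries, since DMSO serves as control for both treatments and the TGF-β libraries enter both steps, so that the values for a gene are given side by side. In RNA from whole cultures, fewer cells that express a gene and less of its RNA per cell cannot be told apart.

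**Figure D1:**
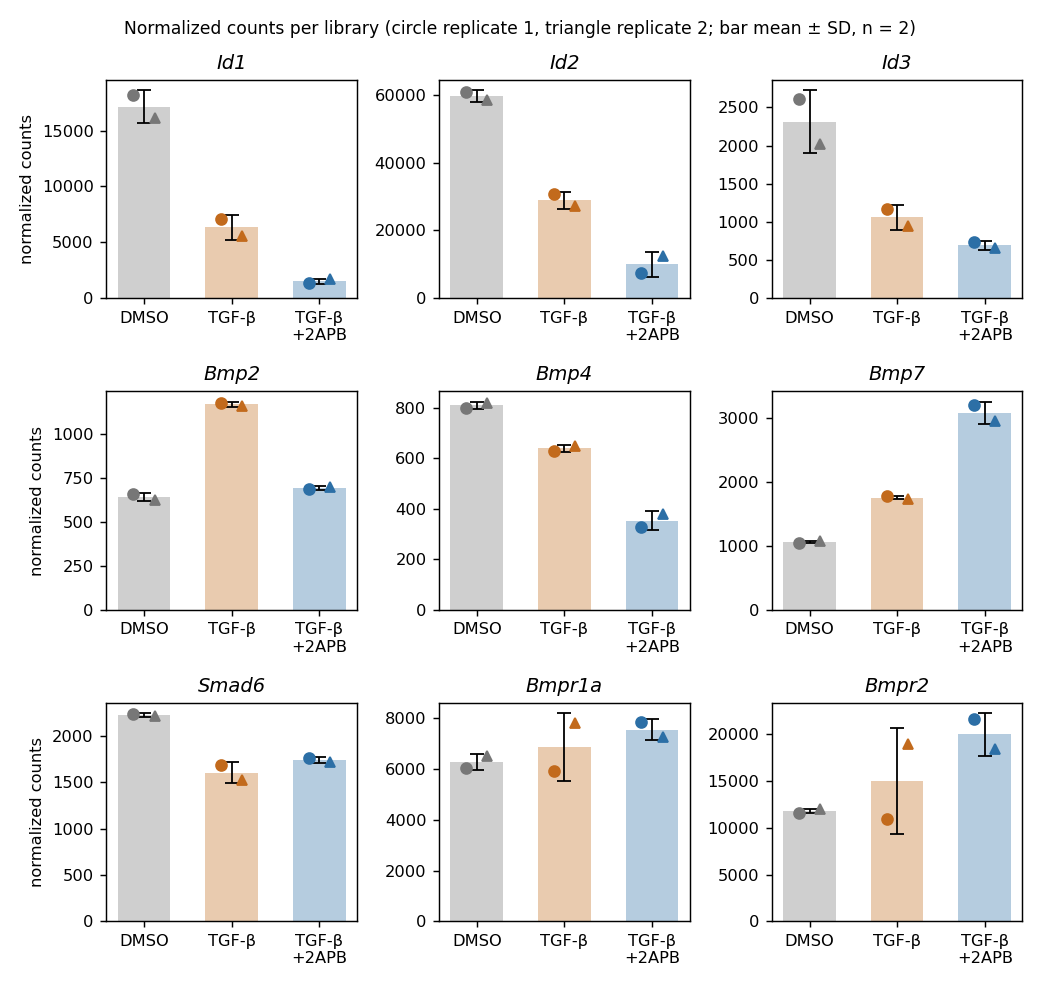
Normalized counts of the 9 tested members in each of the 6 libraries (Id4 is not drawn). Circles mark replicate 1, triangles replicate 2, and bars the mean and SD of 2 replicates. Id1 steps down from 16100 or more in DMSO to 1687 or less in TGF-β+2APB, Bmp2 is high only in the TGF-β libraries, and Bmp7 steps up.

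Id1 is a single-exon gene at chr2:152736251-152737410 (GRCm38, plus strand). Its normalized counts were 18180 and 16100 in DMSO, 7098 and 5570 in TGF-β, and 1370 and 1687 with both agents. The 3 groups did not overlap, and the second step, after 2APB, was the larger in log2 terms. The log2 fold change was -1.44 ± 0.16 (SE, n = 2 per group) with TGF-β (edgeR FDR 0.00147) and -2.05 ± 0.17 with 2APB added to TGF-β (edgeR FDR 0.00358). Against DMSO, Id1 was 11.2-fold lower in TGF-β+2APB (edgeR FDR 6.6e-05). These calls held in 15 of 15 alternative settings, and without TGF-β+2APB replicate 2 the second step was -2.21.

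Id2, at chr12:25093799-25097140 (minus strand), encodes a relative of ID1 that is abundant in many epithelia. It gave 60860 and 58420 normalized counts in DMSO, 30690 and 27140 in TGF-β, and 7403 and 12600 in TGF-β+2APB. The groups again did not overlap, but the TGF-β+2APB libraries lay far apart. The higher value was in replicate 2, the library with the highest leukocyte marker sum. The log2 fold change was -1.04 ± 0.24 with TGF-β (edgeR FDR 0.0185) and -1.53 ± 0.25 with 2APB added (edgeR FDR 0.0144). Without TGF-β+2APB replicate 2 the second value was -1.97 (edgeR FDR 0.00541), so the fall was larger without that library. The call with TGF-β was lost without DMSO replicate 1 (FDR 0.0913 in edgeR), DMSO replicate 2 (0.0772) or TGF-β replicate 2 (0.0503). Against DMSO, Id2 was 5.96-fold lower in TGF-β+2APB (edgeR FDR 0.000573).

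Id3, at chr4:136143497-136145755 (plus strand), encodes another inhibitor of the same kind. Its normalized counts were 2604 and 2018 in DMSO, 1175 and 942.1 in TGF-β, and 730.5 and 653.1 in TGF-β+2APB. All TGF-β libraries lay below DMSO, and both TGF-β+2APB libraries lay below TGF-β by a smaller step. With TGF-β the log2 fold change was -1.13 ± 0.17 (edgeR FDR 0.0041). With 2APB added to TGF-β it was -0.61 ± 0.17 and missed the threshold (edgeR FDR 0.0628). Over 15 alternatives the FDR of that step ran from 0.0175 to 0.235 and passed in 4, among them the fit without TGF-β replicate 2 (0.0232 in edgeR). Against DMSO, Id3 was 3.34-fold lower in TGF-β+2APB (edgeR FDR 0.000607). Id4, at chr13:48261228-48266026, held 2 to 8 deposited counts per library and was not tested. Its exons overlap those of A330033J07Rik and Gm49291 on the other strand, and since the strand setting of the counting was not given, such reads cannot be told apart.

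Because gene length affects counts, levels of the Id genes are compared as normalized counts per kb of the longest annotated transcript. Id2 was the highest of the family in every library, followed by Id1, then Id3, with Id4 at 1.05 to 1.54 per kb on average in the groups. The means per kb in DMSO were 30290 for Id2, 14780 for Id1 and 1809 for Id3. In TGF-β+2APB they were 5080, 1318 and 541.3, and this order was the same in all 6 libraries, so that no neighbours overlapped. The summed level of Id1, Id2 and Id3 per kb was 48620 and 45130 in DMSO, 22630 and 19320 in TGF-β, and 5512 and 8365 in TGF-β+2APB.

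The balance between the Id genes differed by group. The Id1 level was 7.69 and 8.79 times that of Id3 per kb in DMSO and 6.66 and 6.51 times in TGF-β. In TGF-β+2APB it was 2.07 and 2.85 times, below all other libraries. The ratio of Id1 to Id2 was 0.507 and 0.468 in DMSO, 0.392 and 0.348 in TGF-β, and 0.314 and 0.227 in TGF-β+2APB. These ratios are descriptions and were not tested.

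**Figure D2:**
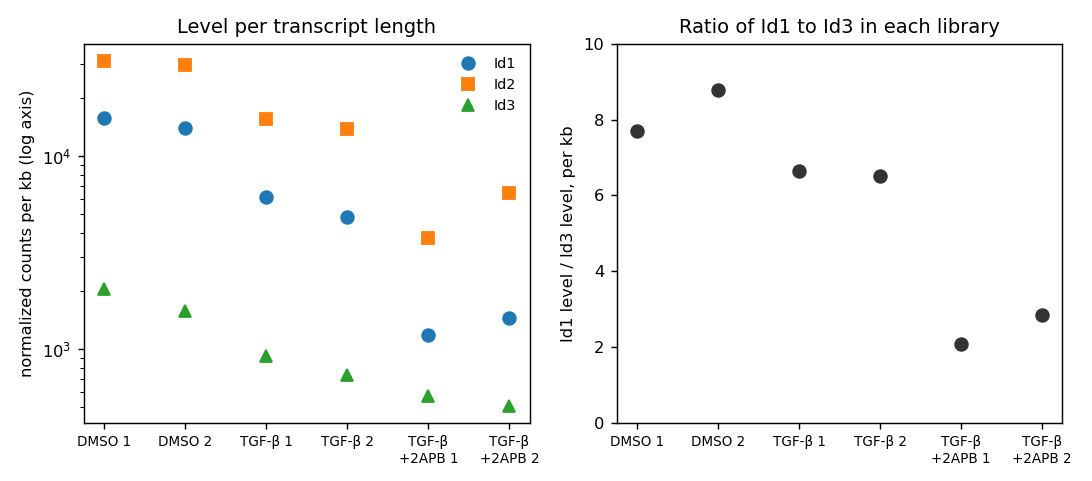
Left, normalized counts per kb of Id1, Id2 and Id3 in each library on a log axis. Right, the ratio of the Id1 level to the Id3 level per kb, which lies between 6.51 and 8.79 in DMSO and TGF-β and at 2.07 and 2.85 in TGF-β+2APB.

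To place these patterns, the Euclidean distance between centred log2 CPM values over the 6 libraries was taken from each Id gene to all other genes. Nearest to Id1 were the adhesion receptor gene Vcam1 (distance 0.248), the homeobox gene Cdx2 (0.272) and Gm3716 (0.282), while the median gene lay 3.57 away. Vcam1 fell from a mean of 32320 normalized counts in DMSO to 12040 in TGF-β and 2937 in TGF-β+2APB. Id2 had Tspan33 (0.146), Aqp11 (0.194) and Mturn (0.254) nearest, and Id3 had Evi5l (0.208), Mxd1 (0.284) and Gm16039 (0.298). Distances between the Id genes were 0.938 for Id1 and Id2, 1.29 for Id2 and Id3 and 1.91 for Id1 and Id3. The neighbours are the nearest of all genes tested, so other pairs were bound to lie farther.

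The promoters of Id2, Id3 and Smad6 are shown because these genes fell with TGF-β and because SMAD proteins are known to bind GC-rich elements (GGCGCC) and the SMAD box (GTCT, or AGAC on the other strand). RefSeq promoter sequences, 250 bases before to 50 after the gene's start in RefSeq (GRCm38.p6), were matched for 7 of the 10 members. Id1, Bmp2 and Bmp7 had no match, so that Id1, which also fell with TGF-β, is not shown. The RefSeq start of Smad6 is that of the GENCODE gene given with its values below, but those of Id2 and Id3 lie 1048 and 325 bases downstream of the outermost GENCODE start, so that these windows fall within the gene spans given above. Motif positions are counted from the RefSeq start. The sequences read 5′ to 3′ on the strand of the gene, from chr12:25096043-25096342 (minus) for Id2, chr4:136143572-136143871 (plus) for Id3 and chr9:64022010-64022309 (minus) for Smad6. Capitals mark the GC-rich element and the SMAD box in either orientation.
Id2 promoter: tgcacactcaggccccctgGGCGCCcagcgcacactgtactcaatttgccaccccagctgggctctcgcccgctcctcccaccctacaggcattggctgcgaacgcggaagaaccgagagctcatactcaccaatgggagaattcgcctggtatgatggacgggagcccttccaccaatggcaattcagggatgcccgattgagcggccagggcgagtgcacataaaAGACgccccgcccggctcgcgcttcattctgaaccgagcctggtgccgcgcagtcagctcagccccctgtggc
Id3 promoter: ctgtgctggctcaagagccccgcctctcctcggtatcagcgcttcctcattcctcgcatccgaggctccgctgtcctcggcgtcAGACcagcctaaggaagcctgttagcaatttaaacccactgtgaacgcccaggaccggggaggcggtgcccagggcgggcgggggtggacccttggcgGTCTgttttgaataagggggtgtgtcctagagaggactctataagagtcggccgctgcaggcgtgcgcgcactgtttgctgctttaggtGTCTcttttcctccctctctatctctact
Smad6 promoter: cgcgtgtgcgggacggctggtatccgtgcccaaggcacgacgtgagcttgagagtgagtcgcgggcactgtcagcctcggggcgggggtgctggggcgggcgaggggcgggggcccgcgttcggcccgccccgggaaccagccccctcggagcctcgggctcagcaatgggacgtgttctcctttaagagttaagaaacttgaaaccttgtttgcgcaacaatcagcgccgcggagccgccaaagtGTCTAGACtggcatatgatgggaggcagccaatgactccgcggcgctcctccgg
In the Id2 window, GGCGCC began 231 bases before the RefSeq start and AGAC 23 bases before it. The Id3 window held AGAC at 166 and GTCT at 68 bases before the start and GTCT again at position 22 after it, with no GGCGCC. In Smad6 the letters GTCT and AGAC adjoin at the start and form GTCTAGAC, a palindrome found in 70 of 32851 promoters of the same length (0.213%). GGCGCC was also present in the windows of Id4, Bmpr1a and Bmpr2, and 11.9% of all promoters held it. GTCT on either strand was present in 88% of all promoters, so its presence sets these genes apart from few others. The E-box CACCTG, searched on both strands, was found among the 7 only in Bmp4, and in 20.2% of all promoters. These matches describe letters and not binding.

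The 3 ligands moved in 3 different ways. Bmp2, at chr2:133552159-133562885, encodes a ligand with strong activity on mesenchymal and epithelial cells. Its normalized counts were 656.5 and 623.9 in DMSO, 1180 and 1158 in TGF-β, and 687 and 700.4 in TGF-β+2APB. Both TGF-β libraries stood above the other 4, and the TGF-β+2APB values were just above those of DMSO. Bmp2 rose with TGF-β (log2 fold change 0.87 ± 0.09, edgeR FDR 0.00111) and fell when 2APB was added (-0.75 ± 0.09, edgeR FDR 0.00706). Both calls held in 15 of 15 alternatives, and TGF-β+2APB against DMSO gave 0.12 ± 0.09 (edgeR FDR 0.326). The same TGF-β libraries stand in the rise and in the fall.

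Bmp4, at chr14:46383520-46390669, encodes a ligand closely related to BMP2. It had 800 and 820.2 normalized counts in DMSO, 629.2 and 649.5 in TGF-β, and 326.7 and 380.8 in TGF-β+2APB. The groups did not overlap. The change with TGF-β alone was -0.34 ± 0.12 and missed the threshold (edgeR FDR 0.0646). It passed in 1 of 15 alternatives, the DESeq2 fit (DESeq2 FDR 0.0402). Bmp4 fell with 2APB added to TGF-β (-0.85 ± 0.12, edgeR FDR 0.0103). Against DMSO it fell by 1.20 on the log2 scale (edgeR FDR 0.00061). Exons of Bmp4 overlap Gm15217 on the other strand, with the same limit as for Id4.

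Bmp7, at chr2:172868012-172940321, encodes a ligand known for its part in keeping epithelial character in kidney and other tissues. Its normalized counts were 1050 and 1072 in DMSO, 1773 and 1735 in TGF-β, and 3201 and 2954 in TGF-β+2APB. Every library of a later group was above every library of the one before. Bmp7 rose with TGF-β (0.73 ± 0.08, edgeR FDR 0.00123) and rose again with 2APB (0.81 ± 0.08, edgeR FDR 0.00457), and both calls held in 15 of 15 alternatives. It was the one member higher in the direct comparison, and against DMSO it was 2.9-fold higher (edgeR FDR 6.89e-05). Per kb, the Bmp7 level was 0.738 and 0.735 times that of Bmp4 in DMSO, 1.58 and 1.5 times in TGF-β, and 5.51 and 4.36 times in TGF-β+2APB, so that the order of these ligands turned between DMSO and TGF-β.

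**Figure D3:**
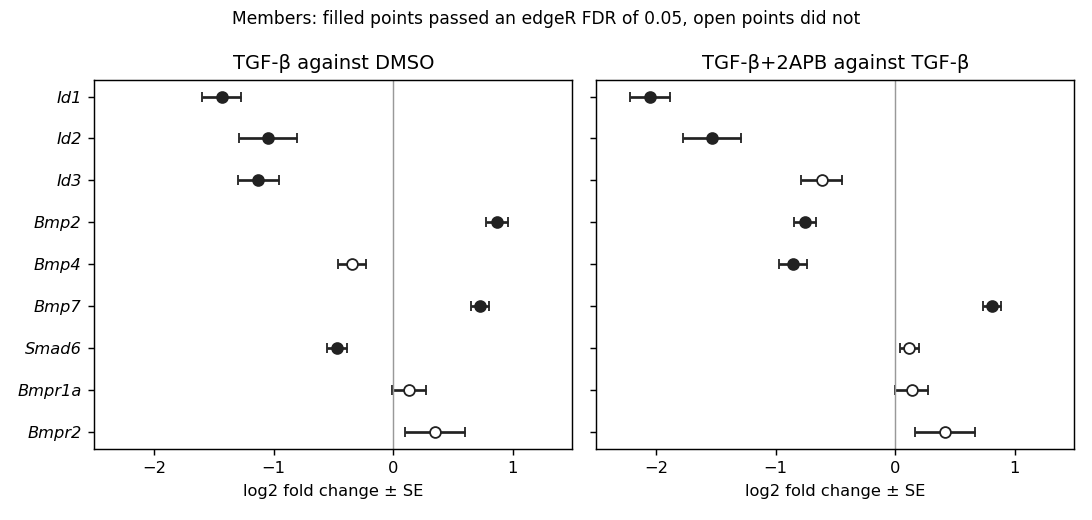
Log2 fold changes with their SE for the 9 tested members, TGF-β against DMSO on the left and TGF-β+2APB against TGF-β on the right. Filled points passed an edgeR FDR of 0.05, which Bmp2 did at 0.87 on the left and -0.75 on the right, and open points, such as Bmpr1a and Bmpr2, did not.

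Smad6, at chr9:63953076-64022059, encodes an inhibitory SMAD that is itself induced by BMP and damps the pathway. Its normalized counts were 2235 and 2207 in DMSO, 1681 and 1521 in TGF-β, and 1760 and 1716 in TGF-β+2APB. All 4 treated libraries lay below DMSO. Smad6 fell with TGF-β (-0.47 ± 0.08, edgeR FDR 0.00646), and this call was lost without DMSO replicate 1 (edgeR FDR 0.0653) or DMSO replicate 2. The change with 2APB added was 0.12 ± 0.08 (edgeR FDR 0.362), unlike the further falls of Id1 and Id2, although the difference between genes was not tested. Against DMSO, TGF-β+2APB gave -0.35 ± 0.08 (edgeR FDR 0.0138), a call lost when any DMSO or TGF-β+2APB library was left out.

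The receptors showed no call in either step. Bmpr1a, the type I receptor gene at chr14:34410734-34503341, had 6034 and 6493 normalized counts in DMSO, 5931 and 7803 in TGF-β, and 7834 and 7267 in TGF-β+2APB. Bmpr2, the type II receptor gene at chr1:59763400-59879014, had 11590 and 11940 in DMSO, 10960 and 18960 in TGF-β, and 21540 and 18340 in TGF-β+2APB. The spread between the TGF-β replicates was wide for both, and for Bmpr2 it covered the DMSO values and reached the TGF-β+2APB values. The log2 fold changes with TGF-β were 0.13 ± 0.14 for Bmpr1a (edgeR FDR 0.494) and 0.35 ± 0.25 for Bmpr2 (edgeR FDR 0.319). Without TGF-β replicate 1, both passed as higher with TGF-β, at 0.32 and 0.69. Without TGF-β replicate 2 they were -0.08 and -0.10 with TGF-β, and the step to TGF-β+2APB then passed at 0.35 for Bmpr1a (edgeR FDR 0.0246) and 0.86 for Bmpr2 (edgeR FDR 0.00499). With all libraries that step was 0.14 ± 0.14 for Bmpr1a (edgeR FDR 0.544) and 0.41 ± 0.25 for Bmpr2 (edgeR FDR 0.305). Against DMSO, Bmpr2 rose in TGF-β+2APB by 0.76 ± 0.25 (edgeR FDR 0.048), a call lost in 7 of 15 alternatives, among them the fits without either DMSO library or either TGF-β+2APB library. For Bmpr1a that comparison gave 0.27 ± 0.14 (edgeR FDR 0.163), and it passed in 3 of 15 alternatives, among them the fits without TGF-β replicate 1 or TGF-β replicate 2 (edgeR FDR 0.0156 for the latter). Bmpr1a exons overlap Gm17110 on the other strand.

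The rest of the pathway was read from a list of 45 other genes, of which 38 had a row and 26 could be tested. With TGF-β, 20 of 26 passed, 16 higher and 4 lower (of all genes tested 41.5% passed, 21.8% higher), and the median log2 fold change was 0.41. In TGF-β+2APB against DMSO, 21 passed, 16 higher and 5 lower (all genes 52.8%, 25.6% higher), with a median of 0.54. In the direct step 7 passed, all higher (all genes 17.5%, 6.58% higher), with a median of 0.19, and this count ran from 1 to 12 when single libraries were left out. It was 1 without DMSO replicate 1, DMSO replicate 2 or TGF-β+2APB replicate 2, 2 without TGF-β+2APB replicate 1, and 12 without TGF-β replicate 2. The calls over all genes moved the same way under these settings, to 858, 834, 1260, 986 and 5405 from 2334. The 7 were Acvr1, Acvr2b, Smad7, Fstl3, Twsg1, Nbl1 and Dlx3. DESeq2 called 12 in the direct step, 9 higher and 3 lower. The lower ones were Grem1, Chrd and Atoh8, which missed the threshold in edgeR. Fstl3 and Dlx3, also among the 16 higher with TGF-β, averaged under 20 normalized counts in both DMSO and TGF-β. They reached the minimum for testing only through TGF-β+2APB, so the filter favoured a rise there. The count with TGF-β was 10 without DMSO replicate 1 and 11 without DMSO replicate 2, where calls over all genes were 2753 and 2895 in place of 5548. None of the 10 other ligand genes on the list reached the minimum for testing, so Bmp2, Bmp4 and Bmp7 were the BMP ligands that could be tested.

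**Figure D4:**
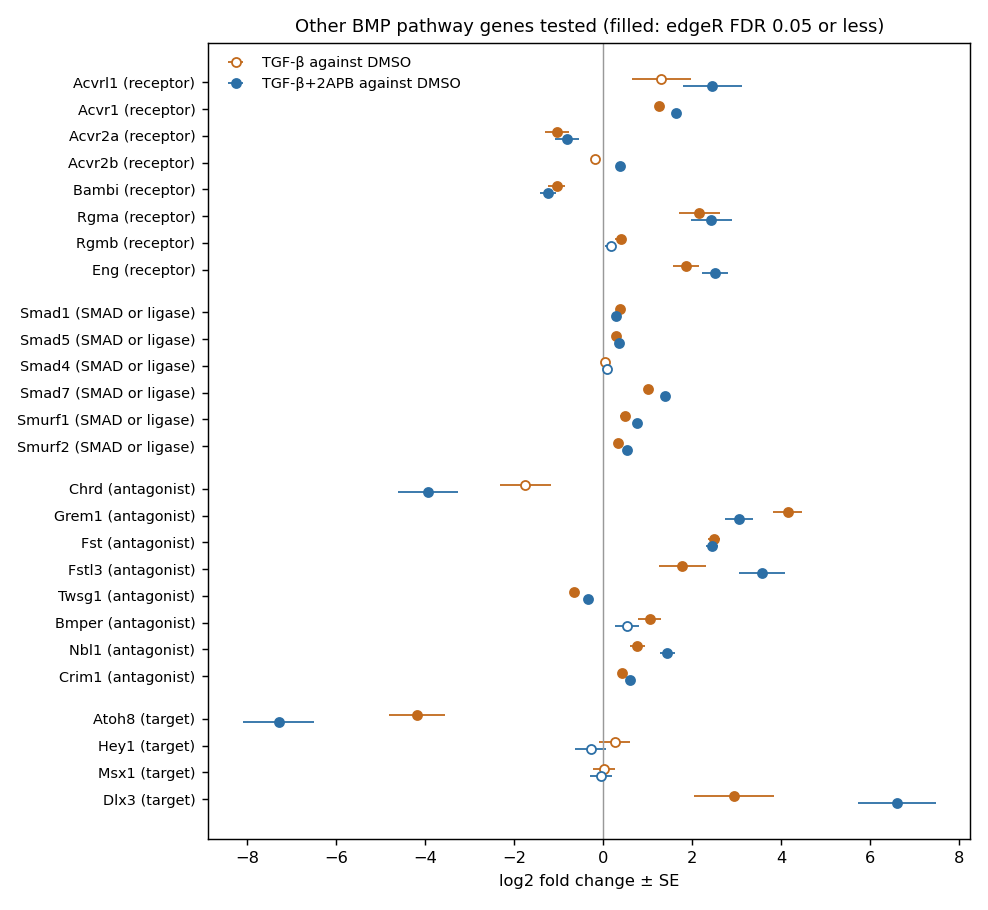
Log2 fold changes with SE of the 26 other BMP pathway genes tested, by role, for TGF-β (orange) and TGF-β+2APB (blue), each against DMSO, with filled points at an edgeR FDR of 0.05 or less. Dlx3 lies farthest to the right for TGF-β+2APB, and Grem1 and Fst lie far to the right in both. Atoh8 and Chrd lie to the left, and Smad4 lies near 0.

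Among receptors and co-receptors, 4 rose and 2 fell of 8 tested with TGF-β, against 21.8% higher and 19.7% lower among all genes. Acvr1, which encodes the type I receptor ALK2, rose from 3654 and 3785 normalized counts in DMSO to 9368 and 8301 in TGF-β and 11960 and 11230 in TGF-β+2APB. The fitted change was 1.25 ± 0.09 with TGF-β (edgeR FDR 0.000321) and 0.39 ± 0.09 in the direct step (edgeR FDR 0.0352), the latter lost in 6 of 15 alternatives, among them the fits without either DMSO or either TGF-β+2APB library. The co-receptor gene Eng had 58.97 and 39.25 normalized counts in DMSO, 204.5 and 153.6 in TGF-β, and 291 and 274.2 in TGF-β+2APB. Eng rose with TGF-β (1.86 ± 0.29, edgeR FDR 0.00445), and its direct step of 0.66 ± 0.27 missed the threshold (edgeR FDR 0.158). Bambi, which encodes a decoy receptor and is a known BMP target, fell with TGF-β (-1.05 ± 0.19, edgeR FDR 0.0071), a call lost without DMSO replicate 1. In the direct step Bambi gave -0.20 ± 0.19 (edgeR FDR 0.5), but it passed as lower without TGF-β replicate 2 (-0.43, edgeR FDR 0.0349). Acvr2a and Acvr2b encode type II receptors. Acvr2a fell with TGF-β (-1.04 ± 0.27, edgeR FDR 0.0276), a call lost without either DMSO library. Its direct step of 0.23 passed without TGF-β replicate 2, at 0.73. Acvr2b rose in the direct step (0.57 ± 0.09, edgeR FDR 0.0163), a call lost without any of the DMSO or TGF-β+2APB libraries. Rgma and Rgmb encode repulsive guidance molecules, which act as BMP co-receptors. Rgma rose with TGF-β (2.16 ± 0.46, edgeR FDR 0.0138) in 15 of 15 alternatives, and Rgmb rose by 0.39 ± 0.12 (edgeR FDR 0.0491) in 7 of 15. Calls for Rgmb were lost without either DMSO library, TGF-β replicate 1 or either TGF-β+2APB library, and its direct step passed as lower without TGF-β replicate 2 (-0.36). Exons of Eng, Acvr2a and Rgma overlap Fpgs, Orc4 and A730056A06Rik on the other strand.

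Of 6 SMAD and ubiquitin ligase genes tested, 5 rose with TGF-β (21.8% of all genes were higher) and Smad4 did not pass (0.03 ± 0.07, edgeR FDR 0.715). Smad7, the other inhibitory SMAD and a known TGF-β target, was 2-fold higher with TGF-β (edgeR FDR 0.000405), from 4680 and 4655 normalized counts to 9118 and 9573. Its libraries with 2APB reached 12770 and 11750, so that Smad6 and Smad7 had opposite signs against DMSO. The direct step of Smad7 was 0.39 ± 0.08 (edgeR FDR 0.0233) and passed in 9 of 15 alternatives. That call was lost with the replicate block and without either DMSO or either TGF-β+2APB library. The signal-carrying SMAD genes Smad1 and Smad5 rose by smaller amounts with TGF-β, 0.38 ± 0.09 and 0.28 ± 0.07, and both calls were lost without either DMSO library, that of Smad5 also without either TGF-β+2APB library. Without TGF-β replicate 2, the direct step of Smad1 passed as lower (-0.20, edgeR FDR 0.0428), against -0.10 ± 0.09 with all libraries. The ligase genes Smurf1 (0.49 ± 0.10) and Smurf2 (0.33 ± 0.07) rose with TGF-β, and these calls were also lost without either DMSO library.

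Of 8 antagonist genes tested, 6 rose with TGF-β and 1 fell, against 21.8% higher and 19.7% lower among all genes. The rises of Grem1 and Fst held in 15 of 15 alternatives, and those of the other 4 did not. The calls for Nbl1 and Crim1 were lost without either DMSO library, that for Bmper without DMSO replicate 1 or TGF-β replicate 1, and that for Fstl3, with 4 counts in each DMSO library, in 7 of 10 alternatives, among them the fits without either DMSO library or TGF-β replicate 2. Grem1, which encodes gremlin 1, had 31.45 and 22.73 normalized counts in DMSO, 372.1 and 593.5 in TGF-β, and 233.6 and 219 in TGF-β+2APB. It rose by 4.15 ± 0.33 with TGF-β (edgeR FDR 0.000429), and the direct step of -1.09 ± 0.28 missed the threshold (edgeR FDR 0.0503) and passed in 5 of 15 alternatives, among them the fit without TGF-β replicate 1. Fst, which encodes the activin and BMP binder follistatin, rose by 2.50 ± 0.13 with TGF-β (edgeR FDR 0.00013), with -0.05 ± 0.12 in the direct step, and its exons overlap Gm47040 on the other strand. Nog, which encodes noggin, had 0 counts in both DMSO libraries, 26 and 12 in TGF-β and 42 and 36 in TGF-β+2APB. Against a floor of 3 counts per library it was at least 6.25-fold higher with TGF-β and at least 12.8-fold higher with TGF-β+2APB, without a test. The antagonist gene Chrd went down, with 104 and 52 counts in DMSO, 22 and 24 in TGF-β, and 8 and 2 in TGF-β+2APB. Its change was -1.75 ± 0.58 with TGF-β and missed the threshold (edgeR FDR 0.0579). The direct step of -2.20 ± 0.68 missed it too (edgeR FDR 0.081). Against DMSO, Chrd was 15.4-fold lower in TGF-β+2APB (edgeR FDR 0.00457). In that comparison 5 of 8 antagonists were higher and 2 lower, against 25.6% and 27.2% of all genes. Twsg1, which encodes twisted gastrulation, fell with TGF-β (-0.66 ± 0.08, edgeR FDR 0.00162) and rose in the direct step (0.32 ± 0.08, edgeR FDR 0.0412). The rise was lost in 8 of 15 alternatives, among them the fits without either DMSO or either TGF-β+2APB library. Fstl3 (1.79 ± 0.45, edgeR FDR 0.047) and Nbl1 (0.67 ± 0.16, edgeR FDR 0.0422) rose in the direct step too, the former in 5 of 11 alternatives and lost without either DMSO library or TGF-β replicate 1, the latter in 5 of 15 and lost without any single library. Exons of Fstl3, Crim1 and Chrd overlap Prss57, Fez2 and Thpo on the other strand.

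Among other targets, Atoh8, a helix-loop-helix gene induced by BMP in several cell types, moved in the same direction as Id1. Its deposited counts were 340 and 316 in DMSO, 22 and 14 in TGF-β, and 4 and 0 in TGF-β+2APB. The log2 fold change was -4.19 ± 0.64 with TGF-β (edgeR FDR 0.00414) and -3.11 ± 0.83 in the direct step, which missed the threshold (edgeR FDR 0.0564). That step passed in 4 of 13 alternatives, among them the fits without TGF-β replicate 2 (edgeR FDR 0.0467) or TGF-β+2APB replicate 1, and its log2 value ran from -2.16 to -7.20. The homeobox gene Dlx3 moved the other way, with 4 and 0 counts in DMSO, 12 and 20 in TGF-β and 228 and 190 in TGF-β+2APB. Its direct step was 3.66 ± 0.70 (edgeR FDR 0.0216), lost without TGF-β replicate 1. Dlx3 averaged 1.97 normalized counts in DMSO and 16.2 in TGF-β, and Atoh8 18 in TGF-β and 1.98 in TGF-β+2APB. Each reached the minimum of 20 for testing only through the group where it was high. Msx1 and Hey1 did not pass in any comparison, and Msx2 was too low to test.

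The E proteins, to which ID proteins bind, were followed through Tcf3, Tcf4 and Tcf12. With TGF-β 1 of 3 passed, Tcf3 at 0.26 ± 0.08 (edgeR FDR 0.0473), and this call was lost in 8 of 15 alternatives, among them the fits without either DMSO or either TGF-β+2APB library. In the direct step 0 of 3 passed in edgeR or in DESeq2, and 0 had an unadjusted p under 0.05 in edgeR. Without TGF-β replicate 2, Tcf4 (1.28) and Tcf12 (0.33) passed in that step. Against DMSO all 3 were higher in TGF-β+2APB, Tcf4 by 0.98 ± 0.30 (edgeR FDR 0.0383), Tcf12 by 0.39 ± 0.09 (edgeR FDR 0.0155) and Tcf3 by 0.35 ± 0.08 (edgeR FDR 0.0134). Each was lost without either DMSO library or TGF-β+2APB replicate 1, and Tcf3 and Tcf4 also without TGF-β+2APB replicate 2. In that comparison 52.8% of all genes passed, 25.6% higher. Tcf4 had 2195 and 4339 normalized counts in the TGF-β libraries, a spread like that of Bmpr2. With TGF-β it gave 0.27 ± 0.30 (edgeR FDR 0.513), but it passed as lower without TGF-β replicate 2 (-0.30, edgeR FDR 0.0439) and as higher without TGF-β replicate 1 (0.69, edgeR FDR 0.00431). Bmpr1a, Bmpr2 and Tcf4 have long transcripts, and in TGF-β the median log2 difference of replicate 2 from replicate 1 was 0.05 for 2622 genes with transcripts of at least 5000 bases and -0.11 for 10096 shorter ones. The part of transcript length in the spread of these genes was not tested.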

How the data were processed

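RNA from 6 NMuMG libraries, 2 biological replicates in each of 3 groups, was selected with oligo-dT and sequenced as single-end reads. The authors checked reads with FastQC 0.11.2, aligned them with TopHat2 2.0.13 to mm10 per the submitters' processing notes (the methods name another genome), and deposited raw counts per gene symbol without normalization. Strand setting and treatment of reads with several alignments were not given in the sources used here. All deposited counts were even, for which no reason is given, so halved counts were tried as an alternative. A total of 25 names had become dates, and those entries are not named. Depth was 71840570 to 79473182 counts per library, and the floor of 3 counts covers counting error only.

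Counts were scaled by TMM and fitted in 1 model of 3 groups with edgeR 4.0.16 (limma 3.58.1, R 4.3.3), over the 13353 entries that averaged 20 or more normalized counts. Quasi-likelihood tests were adjusted by Benjamini-Hochberg over all of them, and an FDR of 0.05 or less was called. Each SE was obtained from the fold change (log2) and its F statistic. The procedure was tested on simulated data. Positions and transcript lengths came from a GRCm38 annotation matched by symbol, and promoters, with their starts, from RefSeq. All members are named, and a gene of the pathway list could be named if called at least once. Genes most like each Id gene are the 3 nearest. Nog, Msx1, Msx2, Hey1, Smad4 and the genes that mark libraries standing apart were named after their values were seen. The members and lists were chosen with earlier results of these data known. Alternatives were DESeq2 1.42.0 without its prior, RLE or library size scaling, other filters, a replicate block, only the 4 libraries compared, stricter thresholds and each library left out. The 15 alternatives counted for a gene also include a replicate block with the TGF-β+2APB numbers exchanged, chosen after seeing the data. That block is also among the 405 fold changes counted below. With TMM against library size scaling the fold changes of all genes shifted by 0.029 to 0.064 on the log2 scale.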

Additional observations from a re-analysis of the deposited data

How the results depend on the processing

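Of 405 tested log2 fold changes of members under alternatives, 374 kept their direction and side of the threshold, 16 lost a call, 12 gained one and 3 turned. Bmpr1a gained calls at 0.323 with TGF-β without TGF-β replicate 1 and at 0.348 in the direct step without TGF-β replicate 2, and Bmpr2 at 0.695 with TGF-β without TGF-β replicate 1. Those that turned were Bmpr1a (-0.079) and Bmpr2 (-0.10) with TGF-β without TGF-β replicate 2, and Bmpr1a (-0.045) in the step from TGF-β to TGF-β+2APB without TGF-β replicate 1. The cause was not tested. With single libraries left out, the members called numbered 4 to 8 with TGF-β, 5 to 8 in the direct step and 5 to 8 for TGF-β+2APB against DMSO. The pathway genes called numbered 10 to 19, 1 to 12 and 14 to 22. A log2 fold change of at least 1 left 3 members with TGF-β and 2 in the direct step, and 12, 2 and 13 pathway genes. At an FDR of 0.01, 3 members remained in the direct step, beside 8 pathway genes for TGF-β. In the direct step 0 pathway genes passed that limit in edgeR (12 at an unadjusted p under 0.05). At an FDR of 0.05, DESeq2 called 12 there (9 higher and 3 lower), no filter gave 4 and a fit of the 4 libraries gave 2.

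Deviations of same-numbered libraries correlated at 0.148 (DMSO and TGF-β), -0.458 (DMSO and TGF-β+2APB) and -0.255 (TGF-β and TGF-β+2APB). These values do not settle whether the replicate numbers pair the samples, since TGF-β+2APB replicate 2 stood apart from replicate 1. With the replicate block, 6 members passed in each comparison, Id3 passed in the direct step (edgeR FDR 0.0375), Bmpr2 against DMSO did not, and 17, 1 and 18 pathway genes passed. A block with the TGF-β+2APB numbers exchanged, chosen after seeing the data, gave 6, 5 and 7 members and 17, 6 and 20 pathway genes. With both second libraries of the treated groups left out, also chosen after seeing the data, the direct step was -2.39 for Id1 and -2.07 for Id2, without a test. With 2 replicates per group, small changes cannot be separated from replicate spread.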
